A study of Mus musculus with 6 samples.

Results

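The insulin-like growth factor (IGF) axis was followed here through 10 listed genes in mouse myoblasts: the ligands *Igf1* and *Igf2*, the receptors *Igf1r* and *Igf2r*, and the binding protein genes *Igfbp2* to *Igfbp7*. The symbols were matched to the Ensembl identifiers of the files through GENCODE M21, and the rule itself used no measured value. The genes were nevertheless chosen with earlier results of these data known. All 10 were among the 14548 genes of the files, and 8 of them were among the 10837 genes that reached 1 FPKM (fragments scaled by the exon length of the gene and by the mapped total of the library) in at least 1 library. *Igf1* and *Igfbp4* stayed below that level. The samples were C2C12 cells, a mouse skeletal muscle myoblast line, kept in basal medium with fetal bovine serum, as 3 wild-type (WT) and 3 MSTN-KO libraries of total RNA. MSTN-KO cells carried a CRISPR/Cas9 edit in exon 3 of the gene for myostatin, a secreted inhibitor of muscle growth. The study names its knockout cells C11, and the labels give C11 as the strain of both groups, so the difference between genotypes and the history of 1 edited line cannot be told apart. Nothing states that the replicates were separate cultures, so the p-values measure only the spread between these libraries.

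IGF1 and IGF2 are secreted hormones that bind the IGF1 receptor, a tyrosine kinase that signals through insulin receptor substrate proteins to the PI3K-AKT and RAS-ERK cascades. The IGF2 receptor has no kinase, carries IGF2 to the lysosome for breakdown and also sorts lysosomal enzymes that bear mannose 6-phosphate. The IGF binding proteins hold the ligands outside the cell and are themselves cut by proteases. In skeletal muscle the axis drives growth and is active during myoblast differentiation, when *Igf2* and *Igfbp5* are typically induced.

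*Mstn*, the targeted gene, was close to 0 in both groups. It measured 0.0211, 0 and 0.0399 FPKM in WT replicates 1, 2 and 3, whereas the MSTN-KO libraries gave 0.0269, 0.0586 and 0.0390 FPKM. Both groups overlapped (two-sided exact permutation test, p = 0.3, where 0.1 is the smallest value that 3 against 3 libraries allow), so *Mstn* RNA checked neither label. The FPKM summed over all genes ran from 723705 to 764524 in WT and from 856314 to 999579 in MSTN-KO, and the number of fragments behind them is unknown. The culture state also differed. Of 24 tested muscle differentiation genes 23 fell, against 8.96% of all genes tested. Some of the 24 reached 1 FPKM through the WT libraries alone, so this count and the medians that follow only describe the list. On the log2(FPKM + 1) scale, the median position of these genes relative to the WT mean was 0.29, 0.54 and −0.99 in WT. It was −2.45, −2.50 and −2.04 in MSTN-KO. WT replicate 3 therefore stood apart from the other WT libraries in the direction of MSTN-KO. It was the lowest WT library for 8 of the 10 IGF axis genes, but the share over all genes was not computed. For *Igfbp6*, which is among them, the low value of WT replicate 3 lay away from the MSTN-KO libraries, which were all higher. Of 7 myoblast markers 6 were in the files, none at 0, and they summed to 1072 to 1537 FPKM in WT and 574 to 705 in MSTN-KO. Singly, 4 of the 6 fell, *Pax7* rose and *Myf5* did not pass the test. *Myog* and *Chrna1* are also on the differentiation list, so both results share genes. The 6 fibroblast markers in the files (of 8 listed) summed to 354 to 491 and 553 to 618 FPKM, and the 3 adipocyte markers (of 6) to 5.69 to 6.48 and 6.74 to 9.94 FPKM. Among the 4 fibroblast markers tested 1 rose (*Col3a1*) and 1 fell (*Dcn*). Of the 2 adipocyte markers tested *Fabp4* rose, from 0.241 ± 0.0891 to 1.24 ± 0.459 FPKM, but reached 1 FPKM through MSTN-KO libraries alone. *Pparg*, at a mean of 5.72 FPKM in WT and 7.4 in MSTN-KO, did not pass the test. The 5 endothelial markers stayed at or below 0.183 FPKM in sum, and the 2 macrophage markers in the files (of 5 listed) summed to 0.726 to 2.45 FPKM. In bulk RNA, fewer cells of a type and less RNA per cell cannot be told apart, and the part of the culture state in the differences below was not tested.

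Across the axis, 1 of the 2 receptors and 3 of the 6 binding protein genes fell in MSTN-KO cells, and 2 binding protein genes rose. *Igf2r* fell from 9.71 ± 2.30 to 0.187 ± 0.0287 FPKM (SD, n = 3 each), *Igfbp5* from 276 ± 75.9 to 132 ± 27.3 and *Igfbp2* from 2605 ± 333 to 1745 ± 260, while *Igfbp3* went from 1.34 ± 0.0689 FPKM to a listed value of 0 in every MSTN-KO library. *Igfbp7* rose from 169 ± 4.42 to 278 ± 46.7 FPKM and *Igfbp6* from 222 ± 30.7 to 330 ± 70.3. Both *Igf2* and *Igf1r* failed the test. Differences were fitted with limma on log2(FPKM + 1) over all genes tested, with Benjamini-Hochberg adjustment and a threshold of 0.05. The 2 members that rose compare with 8.78% of all genes tested that rose, and the 4 that fell compare with 8.96% that fell. By the criteria used for differentially expressed genes (DEGs) in the study, a log2 change beyond 1 in size and a p under 0.05, taken here as unadjusted, 3 members qualified (*Igf2r*, *Igfbp3* and *Igfbp5*), against 3.51% of all genes tested. The libraries of both groups did not overlap for 5 of the 8 members tested, against 37.4% of all genes tested. The median log2 fold change was −0.49 over the 8 members and −0.00078 over all genes tested. *Igf2r* and *Igfbp3* reached the 1 FPKM level through the WT libraries alone, so these counts and medians only describe the members.

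**Figure D1:**
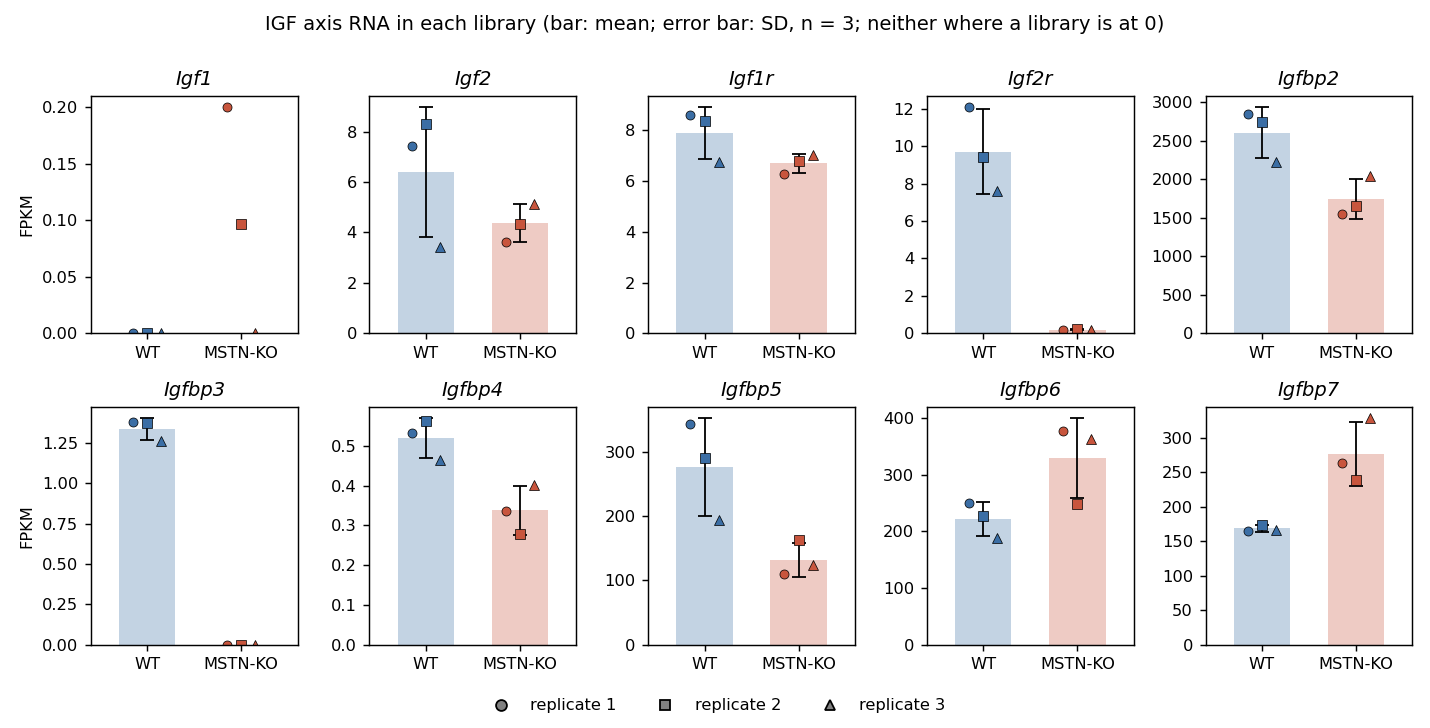
FPKM of each IGF axis gene (y axes, a separate linear scale per gene) in 3 WT (blue) and 3 MSTN-KO (red) libraries, with 1 point per library, bars for the mean and error bars for the SD (n = 3), omitted where a library is at 0. The MSTN-KO points lie below all WT points for *Igf2r*, *Igfbp2*, *Igfbp3*, *Igfbp4* and *Igfbp5* and above them for *Igfbp7*.

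**Figure D2:**
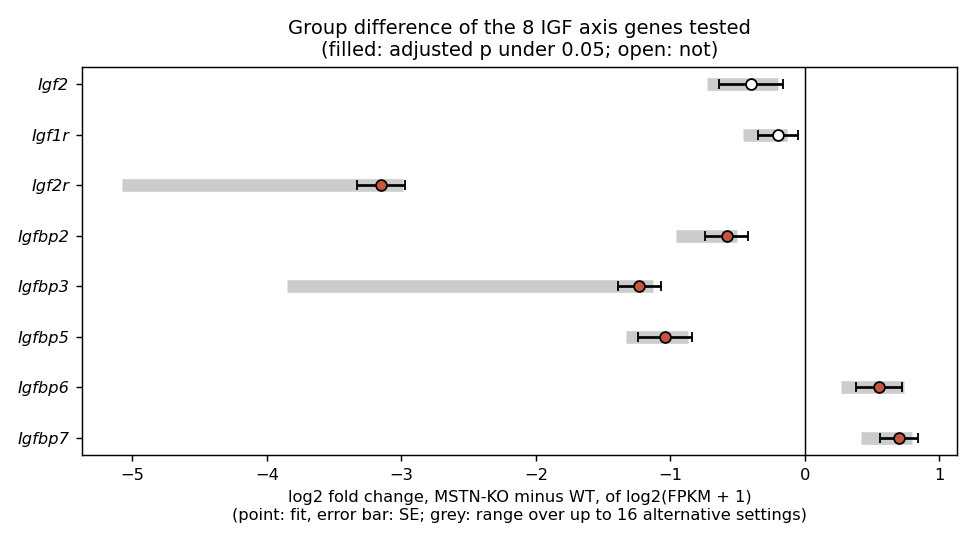
Log2 fold change (MSTN-KO minus WT, of log2(FPKM + 1), x axis) of the 8 IGF axis genes tested, with points for the fit, error bars for the SE and grey bars for the range over up to 16 alternative settings. *Igf2r* at −3.15 lies farthest from 0, and the longest grey bars are those of *Igf2r* and *Igfbp3*, which reach −5.08 and −3.85 with a pseudocount of 0.1.

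Among the ligands, *Igf1* (ENSMUSG00000020053, chromosome 10, 87858265 to 87937042, plus strand, GRCm38) was at or near 0. It was listed at 0 in all 3 WT libraries and measured 0.200, 0.0962 and 0 FPKM across MSTN-KO. With a 0 in each group the libraries overlapped, and in a fit without the filter on low values the log2 difference was 0.13 ± 0.06 (SE, limma adjusted p = 0.224).

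*Igf2* (ENSMUSG00000048583, chromosome 7, 142650766 to 142666816, minus strand), the fetal growth factor that differentiating myoblasts secrete, was the main ligand RNA. It measured 7.44, 8.29 and 3.44 FPKM in WT and 3.63, 4.32 and 5.14 FPKM in MSTN-KO. WT replicates 1 and 2 were above every MSTN-KO library, whereas WT replicate 3 was below all of them. The difference, −0.40 ± 0.24 on the log2 scale (adjusted p = 0.268), did not pass the test. Without WT replicate 3, the WT library with the lowest median of differentiation genes, the difference was −0.73 with an adjusted p of 0.0184. It was −0.27 without WT replicate 1 and −0.20 without WT replicate 2. Over all 16 alternatives the adjusted p ranged from 0.0184 to 0.666. In the annotation *Igf2* shares 16048 bases with a protein-coding gene model of the same strand, *Gm49394*, and overlaps the antisense gene *Igf2os*. How the authors' counting split such fragments is not stated, and *H19*, the neighbouring imprinted gene, was not analysed here.

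Within 1000000 bases of *Igf2*, 19 other genes were tested, of which 5 fell and 1 rose, against 8.96% and 8.78% of all genes tested. Chosen after their values were seen, the fast skeletal troponin genes *Tnnt3* and *Tnni2* had log2 fold changes of −1.98 ± 0.35 (adjusted p = 0.00232) and −1.62 ± 0.30 (adjusted p = 0.0027). Both are also on the muscle differentiation list. *Cdkn1c*, an imprinted inhibitor of cyclin-dependent kinases, fell from 1.92 ± 0.364 to 0.608 ± 0.0390 FPKM (log2 fold change −0.85 ± 0.17, adjusted p = 0.00431). *Cdkn1c* and *Tspan32*, another gene that fell, reached 1 FPKM through the WT libraries alone, so the count only describes these neighbours. *Ins2*, the adjacent insulin gene, had the pattern of *Igf2* in WT, at 3.98, 3.81 and 1.06 FPKM, and measured 2.70, 3.10 and 2.74 FPKM in MSTN-KO.

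The kinase receptor *Igf1r* (ENSMUSG00000005533, chromosome 7, 67952827 to 68233668, plus strand) measured 8.61, 8.35 and 6.73 FPKM in WT and 6.28, 6.78 and 7.03 FPKM in MSTN-KO. WT replicate 3 fell among the MSTN-KO libraries and the groups overlapped. The log2 fold change was −0.20 ± 0.15 (adjusted p = 0.361, and 0.0553 to 0.642 over the 16 alternatives). *Insr*, the insulin receptor, which can pair with the IGF1 receptor, measured 3.48, 2.70 and 3.50 FPKM in WT and 2.39, 3.17 and 2.11 FPKM in MSTN-KO, also with overlap (−0.25 ± 0.17, adjusted p = 0.325). The ratio of *Igf1r* to *Insr* within a library, which does not depend on the scaling of that library, was 2.47, 3.10 and 1.92 in WT and 2.63, 2.14 and 3.34 in MSTN-KO. The mean log2 ratio was higher by 0.12 in MSTN-KO (two-sided exact permutation test, p = 0.7, 0.875 after adjustment over the 5 ratios tested), and it was below 0 without WT replicate 3 (−0.06) or without MSTN-KO replicate 3 (−0.05).

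*Igf2r* (ENSMUSG00000023830, chromosome 17, 12682406 to 12769664, minus strand), the clearance receptor for IGF2 and carrier of mannose 6-phosphate proteins, had the largest log2 fold change of the members on the log2(FPKM + 1) scale. It measured 12.1, 9.40 and 7.59 FPKM in WT and 0.161, 0.218 and 0.181 FPKM in MSTN-KO. All 3 MSTN-KO libraries lay far below the lowest WT library, and the WT mean was 52.0 times the MSTN-KO mean. The log2 fold change was −3.15 ± 0.18 (adjusted p = 1.29e-07). It ranged from −3.51 to −2.99 over the alternatives apart from a pseudocount of 0.1, where it was −5.08, since the pseudocount of 1 shrinks the difference of a gene that is low in 1 group. The ratio of *Igf2r* to *Igf1r* was 1.41, 1.13 and 1.13 in WT and 0.0256, 0.0321 and 0.0258 in MSTN-KO, so the order of both receptors was turned in every MSTN-KO library. The difference in the log2 ratio was −5.46 (exact permutation test, p = 0.1, the smallest possible, and 0.5 after adjustment over 5 ratios).

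The 200 bases upstream of the *Igf2r* start in RefSeq (GRCm38.p6, chr17:12769707-12769906, minus strand) are shown because *Igf2r* had the largest log2 fold change of the axis on that scale. Capitals mark each E box, CANNTG, the letters that basic helix-loop-helix factors such as MyoD and MYC recognise. The motif reads alike on both strands, so 1 search covers both.
Igf2r upstream: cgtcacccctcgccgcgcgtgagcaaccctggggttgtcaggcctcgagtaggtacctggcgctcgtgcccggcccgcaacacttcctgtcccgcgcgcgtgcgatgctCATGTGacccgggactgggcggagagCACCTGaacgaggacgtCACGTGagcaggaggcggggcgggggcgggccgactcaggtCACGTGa
The window held 4 matches to CANNTG, 2 of them CACGTG, a form of the E box that was singled out after the window was read. Of 32851 RefSeq windows of this length, 58.2% held at least 1 CANNTG and 7.49% at least 3, while 5.26% held at least 1 CACGTG and 0.341% at least 2. It also held 25 CG dinucleotides, more than in 93.8% of windows, where the median was 5. The motif shares above are over all windows and were not matched for CG content, although CACGTG itself contains a CG. These matches describe letters only, and no binding or methylation was measured here.

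No tested gene around *Igf2r* passed the test as lower. Of 12 genes in the files within 1000000 bases of its start, 9 were tested, and *Acat2*, an acetyl-CoA acetyltransferase, rose (0.49 ± 0.14, adjusted p = 0.0295). Over all genes tested 8.78% rose and 8.96% fell, so 0 fallers among 9 genes is near that share. The count of fallers was 0 by limma at the adjusted threshold and 0 at an unadjusted p under 0.05, and the 9 log2 fold changes ran from −0.32 to 0.49 with a median of 0.12, against a median of 0.15 over 527 tested genes of chromosome 17. *Airn*, the antisense RNA that overlaps *Igf2r* over 28354 bases in the annotation, was not analysed here, and whether the counting used strand is not stated, so fragments of the pair cannot be told apart.

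**Figure D3:**
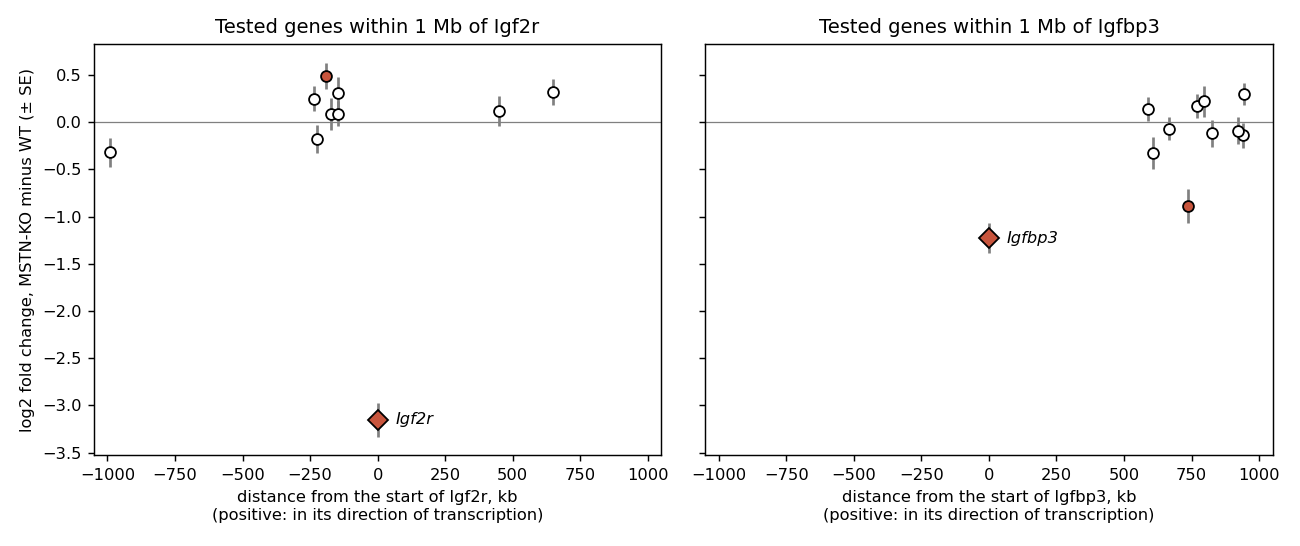
Log2 fold change (MSTN-KO minus WT, y axis, with SE) of tested genes within 1 Mb of *Igf2r* (left) and *Igfbp3* (right) against distance from the start of that gene in kb (x axis); filled symbols have an adjusted p under 0.05. *Igf2r* at −3.15 lies below its 9 neighbours, which run from −0.32 to 0.49, and *Igfbp3* at −1.23 lies below its 10, of which *Purb* is the lowest at −0.89.

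Other genes of mannose 6-phosphate sorting, listed after the values of *Igf2r* were seen, were expressed in both groups. Of 8 tested, *Gnptg*, a subunit of the enzyme that adds the tag, rose from 16.1 ± 1.09 to 24.2 ± 2.88 FPKM (0.56 ± 0.14, adjusted p = 0.0140), and 0 fell by limma (1 at an unadjusted p under 0.05). *M6pr*, the smaller mannose 6-phosphate receptor, measured 61.3 ± 5.06 FPKM in WT and 56.4 ± 4.64 in MSTN-KO (−0.12 ± 0.13, adjusted p = 0.541). The genes whose profile over the 6 libraries was nearest to that of *Igf2r*, among 10270 with a mean of at least 1 FPKM, were *Pnmal2*, *Lrrn1* and *Wtip*, with root mean square differences of 0.0804, 0.124 and 0.210 on the log2 scale. *Pnmal2* went from 8.58 ± 1.65 FPKM to a listed 0 in all MSTN-KO libraries, *Lrrn1* from 8.35 ± 0.775 to 0.0714 ± 0.0141 and *Wtip* from 13.2 ± 2.33 to 0.314 ± 0.0488.

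Among the binding proteins, *Igfbp2* (ENSMUSG00000039323, chromosome 1, 72824503 to 72852474, plus strand) was the most abundant in every library. It measured 2844, 2747 and 2224 FPKM in WT and 1547, 1649 and 2040 FPKM in MSTN-KO, and it stood at rank 43, 46 and 62 and rank 110, 99 and 96 of the 14548 genes. The highest MSTN-KO library remained below the lowest WT library, and the WT mean was 1.49 times the MSTN-KO mean. The log2 fold change was −0.58 ± 0.16 (adjusted p = 0.0230). The call was lost without WT replicate 1 (−0.51, adjusted p = 0.0982), without WT replicate 2 (−0.54, adjusted p = 0.114), without MSTN-KO replicate 1 (−0.50, adjusted p = 0.112) and with no filter on low values (adjusted p = 0.0737), while quantile normalization gave −0.96 (adjusted p = 0.000466).

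*Igfbp5* (ENSMUSG00000026185, chromosome 1, 72857932 to 72874884, minus strand), which encodes a binding protein tied to muscle differentiation, lies 5457 bases from *Igfbp2* and is transcribed towards it. It measured 344, 291 and 194 FPKM in WT and 110, 162 and 123 FPKM in MSTN-KO. The highest MSTN-KO value, in replicate 2, was under the lowest WT value, and the WT mean was 2.10 times the MSTN-KO mean. The log2 fold change was −1.04 ± 0.20 (adjusted p = 0.00343), and the call held in all 16 alternatives (−1.33 to −0.87). *Igfbp2* and *Igfbp5* were among 627 tested genes of chromosome 1, whose median was −0.25. Within 1000000 bases of *Igfbp2* 6 other genes were tested, of which *Igfbp5* fell, *Rpl37a*, for a ribosomal protein, rose by 0.44 (adjusted p = 0.0490), and the median was −0.22. The shares over all genes tested were 8.96% that fell and 8.78% that rose.

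*Igfbp3* (ENSMUSG00000020427, chromosome 11, 7206086 to 7213923, minus strand) encodes the main carrier of IGFs in blood. It measured 1.38, 1.37 and 1.26 FPKM in WT, with little spread, and was listed at 0 in all 3 MSTN-KO libraries. The log2 difference of −1.23 ± 0.16 (adjusted p = 0.000264) depends on the pseudocount, being −3.85 with 0.1, and no fold is given against listed zeros. *Igfbp3* was 1 of 14 genes with a WT mean of at least 1 FPKM that were listed at 0 in every MSTN-KO library, and 3 genes had the reverse pattern. Whether a listed 0 is a failed estimate could not be checked. Over all genes, 2 with a mean of at least 20 FPKM were at 0 in at least 1 library, for reasons not examined. Among 1420 genes within 10% of the length of *Igfbp3*, the 5th percentile of values above 0 was 0.0392, 0.0404 and 0.0373 FPKM in MSTN-KO replicates 1, 2 and 3. Within 1000000 bases of its start 10 other genes were tested, of which *Purb*, for a single-stranded DNA-binding repressor, fell (−0.89, adjusted p = 0.00521) and 0 rose by limma (1 at an unadjusted p under 0.05). For comparison, 8.96% of all genes tested fell and 8.78% rose by limma.

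The upstream windows of these 3 genes are shown to set the members that fell beside *Igf2r*, with E boxes in capitals as above. They lie at chr1:72824280-72824479 (plus strand), chr1:72874866-72875065 (minus strand) and chr11:7213924-7214123 (minus strand) of GRCm38.p6.
Igfbp2 upstream: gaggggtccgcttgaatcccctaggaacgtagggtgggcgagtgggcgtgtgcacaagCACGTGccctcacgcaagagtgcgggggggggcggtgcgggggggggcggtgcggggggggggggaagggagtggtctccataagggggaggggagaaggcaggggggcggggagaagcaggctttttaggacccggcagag
Igfbp5 upstream: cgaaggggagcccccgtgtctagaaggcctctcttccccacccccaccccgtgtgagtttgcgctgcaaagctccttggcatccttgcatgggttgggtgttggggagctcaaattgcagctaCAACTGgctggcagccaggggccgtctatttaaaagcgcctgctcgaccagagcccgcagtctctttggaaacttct
Igfbp3 upstream: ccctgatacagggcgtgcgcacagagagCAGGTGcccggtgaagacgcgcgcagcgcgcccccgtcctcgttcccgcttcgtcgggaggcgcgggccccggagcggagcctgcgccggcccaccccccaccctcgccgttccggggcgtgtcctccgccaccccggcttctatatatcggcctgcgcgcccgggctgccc
Each held 1 CANNTG, which was CACGTG in *Igfbp2*, CAACTG in *Igfbp5* and CAGGTG in *Igfbp3*. They held 13, 8 and 29 CG dinucleotides. The windows of the members that rose differed likewise, with 1 CANNTG and 6 CG in *Igfbp6* and 0 CANNTG and 25 CG in *Igfbp7*.

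*Igfbp4* (ENSMUSG00000017493, chromosome 11, 99041244 to 99054392, plus strand), a binding protein that inhibits IGF action, stayed below the filter. It measured 0.532, 0.563 and 0.465 FPKM in WT and 0.335, 0.278 and 0.401 FPKM in MSTN-KO. The groups did not overlap, and in the fit without a filter the log2 difference was −0.18 ± 0.06 (adjusted p = 0.0871). The ratio of *Igfbp4* to *Igfbp5* was 0.00155, 0.00194 and 0.00239 in WT and 0.00305, 0.00171 and 0.00326 in MSTN-KO, which overlapped (log2 difference 0.41, exact permutation p = 0.3, adjusted 0.5). That difference was 0.86 with a pseudocount of 1, 0.24 without MSTN-KO replicate 3, 0.26 without WT replicate 1 and 0.71 without MSTN-KO replicate 2.

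*Igfbp7* (ENSMUSG00000036256, chromosome 5, 77349240 to 77408041, minus strand), for a matrix protein that binds IGFs weakly, rose. It measured 165, 174 and 167 FPKM in WT and 264, 239 and 329 FPKM in MSTN-KO. All MSTN-KO libraries were above the narrow WT range, and the MSTN-KO mean was 1.64 times the WT mean. The log2 fold change was 0.70 ± 0.14 (adjusted p = 0.00384), and the call held in all 16 alternatives (0.42 to 0.80). Its nearest profiles were those of *Stmn2*, a microtubule regulator, *Cenpm*, a centromere component, and *Sqor*, a mitochondrial sulfide oxidase, with root mean square differences of 0.0374, 0.0600 and 0.0610. *Stmn2* rose from 195 ± 8.94 to 313 ± 43.8 FPKM.

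*Igfbp6* (ENSMUSG00000023046, chromosome 15, 102144362 to 102149511, plus strand), which encodes a binding protein with a preference for IGF2, measured 250.0, 227 and 189 FPKM in WT and 378, 249 and 363 FPKM in MSTN-KO. MSTN-KO replicates 1 and 3 were above all WT libraries, but replicate 2 fell just under WT replicate 1, so the groups overlapped. The log2 fold change was 0.55 ± 0.17 (adjusted p = 0.0373). The call was lost without any 1 library other than MSTN-KO replicate 2 (0.44 to 0.64, adjusted p from 0.0550 to 0.144), with no filter (adjusted p = 0.0976), with no variance trend (0.0572), after quantile normalization (0.36, adjusted p = 0.119) and after scaling to a common sum (0.27, adjusted p = 0.206). Of its 32 tested neighbours within 1000000 bases 7 rose and 1 fell, against 8.78% and 8.96% of all genes tested. Their median was 0.22, against 0.11 over chromosome 15, and the difference was not tested.

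Percentages of the summed binding protein RNA do not depend on the scaling of a library. *Igfbp2* made up 78.9%, 79.8% and 80.1% in WT and 67.3%, 71.7% and 71.4% in MSTN-KO, so its share was lower in every MSTN-KO library. *Igfbp6* made up 6.93%, 6.61% and 6.81% in WT and 16.4%, 10.8% and 12.7% in MSTN-KO, and on this scale its groups did not overlap. A share also moves with the other genes of the sum, so this does not by itself show a rise of *Igfbp6*: MSTN-KO replicate 2 and WT replicate 1 had nearly the same *Igfbp6* FPKM but different shares. The share of *Igfbp7* was 4.58%, 5.05% and 6.03% in WT and 11.5%, 10.4% and 11.5% in MSTN-KO. *Igfbp5* had 9.55%, 8.45% and 7.0% in WT and 4.78%, 7.06% and 4.31% in MSTN-KO, where MSTN-KO replicate 2 just exceeded WT replicate 3. Against the sum of the other binding proteins its log2 ratio differed by −0.70 (exact permutation p = 0.2, adjusted 0.5). The summed level of the 6 genes overlapped between groups, at 3605, 3440 and 2777 FPKM in WT and 2299, 2300 and 2856 FPKM in MSTN-KO. Summed ligand RNA was small beside it, at a ratio of 0.00206, 0.00241 and 0.00124 in WT and 0.00167, 0.00192 and 0.00180 in MSTN-KO (log2 difference −0.03, exact permutation p = 1.0), a difference whose sign changed when single libraries were left out.

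**Figure D4:**
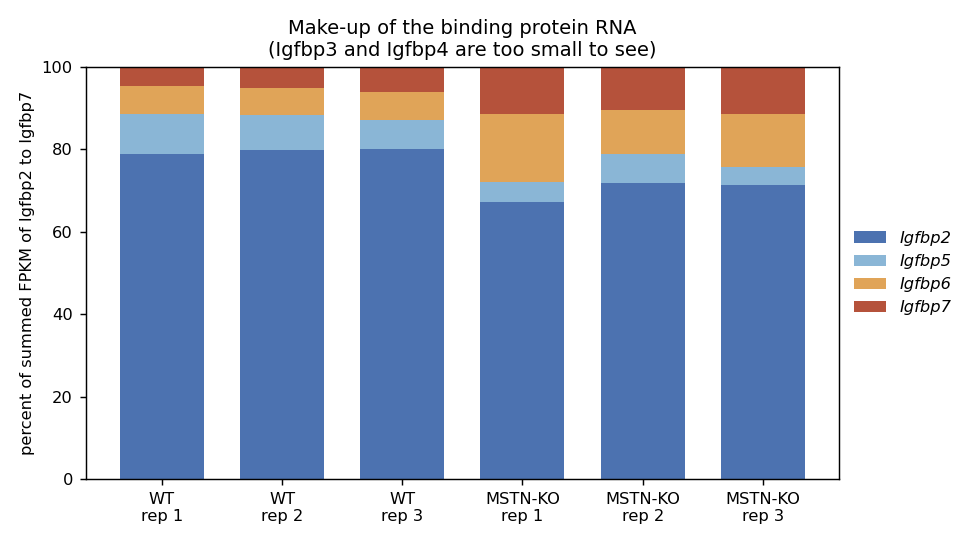
Percent of the summed FPKM of *Igfbp2* to *Igfbp7* taken by each gene (y axis) in the 6 libraries (x axis), with 1 stacked bar per library; *Igfbp3* and *Igfbp4* are too small to see. *Igfbp6* and *Igfbp7* take 6.61% to 6.93% and 4.58% to 6.03% in WT and 10.8% to 16.4% and 10.4% to 11.5% in MSTN-KO.

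The order of the members by mean FPKM, a level per length, also differed. In WT it ran *Igfbp2*, *Igfbp5*, *Igfbp6*, *Igfbp7*, *Igf2r*, *Igf1r*, *Igf2*, *Igfbp3*, *Igfbp4* and *Igf1*, where the libraries of *Igfbp5* and *Igfbp6* overlapped, as did those of *Igf2r* with *Igf1r* and of *Igf1r* with *Igf2*. In MSTN-KO it ran *Igfbp2*, *Igfbp6*, *Igfbp7*, *Igfbp5*, *Igf1r*, *Igf2*, *Igfbp4*, *Igf2r*, *Igf1* and *Igfbp3*, with overlap between *Igfbp6* and *Igfbp7* and between the neighbours *Igf2r* and *Igf1* and *Igf1* and *Igfbp3*. *Igf2r* thus moved from the 5th to the 8th place and *Igfbp5* from the 2nd to the 4th.

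Beyond the members, 89 other genes of the pathway were listed. Of these 79 were in the files and 67 were tested, of which 5 rose and 4 fell, with a median log2 fold change of −0.0029. Over all genes tested 8.78% rose and 8.96% fell. Of 5 tested proteases of binding proteins and their inhibitors, 2 rose and 0 fell by limma (0 also at an unadjusted p under 0.05). *Mmp2*, a matrix metalloprotease, rose from 9.51 ± 0.865 to 21.8 ± 4.93 FPKM (1.10 ± 0.16, adjusted p = 0.000589) and *Htra1*, a secreted serine protease that cuts IGFBP5, from 80.4 ± 2.10 to 133 ± 13.3 FPKM (0.71 ± 0.12, adjusted p = 0.00165). *Pappa*, the protease of IGFBP4, stayed below the filter, at 0.536, 0.433 and 0.536 FPKM in WT and 0.0834, 0.139 and 0.0704 FPKM in MSTN-KO, and is named here after its values were seen.

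Of 16 tested adaptors of the receptor 2 rose and 1 fell by limma, with 2 higher and 4 lower at an unadjusted p under 0.05. *Irs2*, an insulin receptor substrate, rose from 1.74 ± 0.229 to 3.33 ± 0.529 FPKM (0.66 ± 0.16, adjusted p = 0.0154), and *Grb14*, an inhibitor of insulin receptor signalling, from 3.65 ± 0.555 to 6.12 ± 0.296 (0.62 ± 0.15, adjusted p = 0.0144). *Irs1*, another such substrate, measured 5.8 ± 1.13 FPKM in WT and 3.64 ± 1.13 in MSTN-KO (−0.57 ± 0.19, limma adjusted p = 0.0602). Its MSTN-KO libraries were all below the WT libraries, but it did not pass the test. *Crkl*, an SH2 and SH3 adaptor, fell from 12.2 ± 0.582 to 6.13 ± 0.756 FPKM (−0.89 ± 0.14, adjusted p = 0.00104). *Igf2bp2*, which binds *Igf2* mRNA, fell from 17.3 ± 0.856 to 12.7 ± 0.282 FPKM (−0.41 ± 0.13, adjusted p = 0.0390).

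Downstream, of 30 tested genes of the PI3K, AKT, mTOR and FoxO list 0 rose and 0 fell by limma, with 5 higher and 2 lower at an unadjusted p under 0.05 and a median of −0.02. Of the 12 RAS and ERK genes reported here 1 rose and 2 fell. *Rps6ka1*, a kinase that ERK activates, fell from 1.6 ± 0.150 to 0.493 ± 0.117 FPKM (−0.80 ± 0.17, adjusted p = 0.00532) and *Nras*, a RAS GTPase, from 30.0 ± 1.11 to 18.5 ± 2.31 (−0.67 ± 0.13, adjusted p = 0.00431). *Rps6ka1* reached 1 FPKM through the WT libraries alone, so its fall and the count that includes it are description only. *Map2k2*, a kinase upstream of ERK, was the gene that rose (0.42 ± 0.12, adjusted p = 0.0326).

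**Figure D5:**
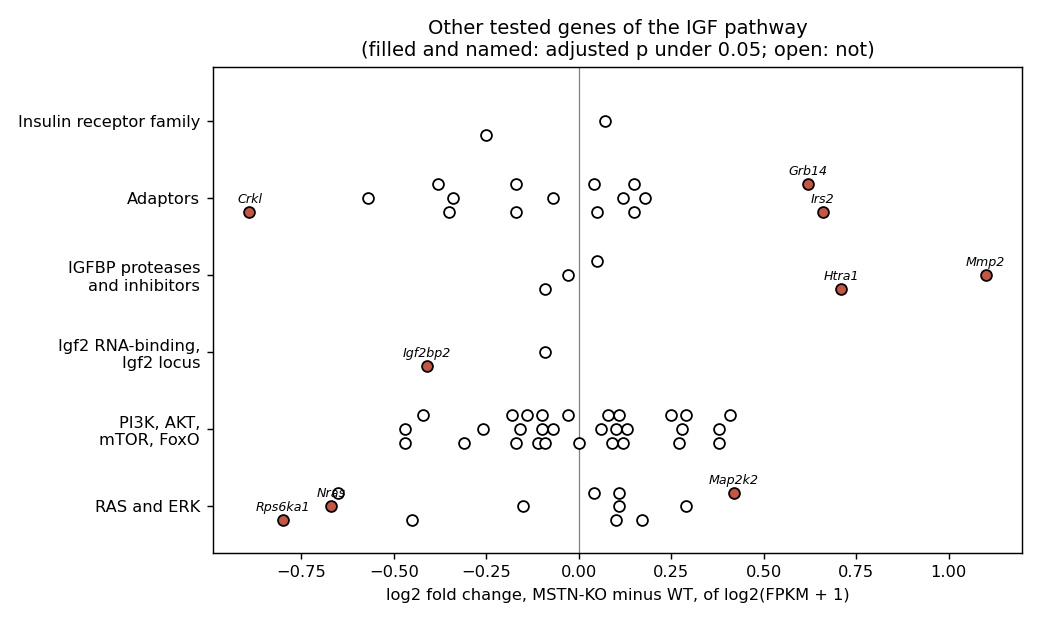
Log2 fold change (MSTN-KO minus WT, of log2(FPKM + 1), x axis) of the 67 other tested genes of the IGF pathway, 1 point per gene in 6 lists (rows); filled, named points have an adjusted p under 0.05. The filled points run from −0.89 for *Crkl* to 1.10 for *Mmp2*, and the PI3K, AKT, mTOR and FoxO row has none.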

How the data were processed

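Total RNA of 3 WT and 3 MSTN-KO C2C12 libraries was sequenced on an Illumina instrument. The authors deposited 1 FPKM value per Ensembl gene and library. The submitters' processing notes name Bowtie 0.12.2 and mm8, and the quantifier and use of strand are not given in the sources used here. The files hold 14 values above 0 but under 1e-06 FPKM, so fragment numbers could not be read back and depth is unknown. Members and lists were chosen with earlier results of these data known.

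Gene names, positions, lengths and GC content came from GENCODE M21 (GRCm38) by identifier, with 14445 of 14548 matched, and upstream windows from RefSeq GRCm38.p6. No coordinates were converted between builds. Genes that reached 1 FPKM in any library were tested with limma 3.58.1 (R 4.3.3, trended eBayes) on log2(FPKM + 1), MSTN-KO minus WT, with Benjamini-Hochberg adjustment. Fold changes on this scale understate those of low genes. Ratios used two-sided exact permutation tests over 20 regroupings (scipy 1.17.1), and *Igf2* to *Igf1* was left out for its zeros. Scripts were tested on simulated data. Alternatives covered the pseudocount, filter, variance trend, scaling, length and GC correction (mgcv 1.9.3), a replicate block and each library left out.

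The text names all members, *Mstn*, *Insr* and *H19*; pathway genes past the DEG criteria with an adjusted p under 0.05 and up to 3 called genes per list by size; and the 3 nearest profiles of the members with the largest rise and fall. Other names were added after their values were seen: *Ins2*, *Pappa*, *Irs1*, the named cell type markers, the mannose 6-phosphate genes and the genes near a member. A gene of the RAS and ERK list was taken out after its values were seen, for a reason unrelated to them, and is not reported here.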

Additional observations from a re-analysis of the deposited data

How the results depend on the processing

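Of 127 alternative values of single members, 113 kept direction and call, 13 lost the call (4 of *Igfbp2*, 9 of *Igfbp6*), 1 gained it (*Igf2*) and 0 changed sign. The count of members that rose, 2, was 1 with no filter, no variance trend, quantile normalization or scaling to a sum of 1000000, and 1 to 2 with 1 library left out. Other pathway genes that rose, 5, were 2 after scaling to that sum and 3 to 7 with 1 library left out. Those that fell, 4, were 7 with no filter, 12 after that scaling and 3 to 8 with 1 library left out. That scaling moved the median of all genes to −0.26 and the calls from 952 higher and 971 lower to 350 and 2367 (12.9% of calls higher against 49.5%). Relative to that median *Igfbp6* was 0.52, *Igfbp7* 0.67, *Igfbp2* −0.61, *Igfbp5* −1.07, *Igfbp3* −1.22 and *Igf2r* −3.26. Calls over all genes also moved by over 1.5 times in at least 1 direction without WT replicate 2 (423 higher, 606 lower), WT replicate 3 (603, 797), MSTN-KO replicate 1 (511, 695) or MSTN-KO replicate 3 (583, 723). The log2 ratio of *Igf1r* to *Insr* ran from −0.06 to 0.29 with 1 library left out, reaching −0.06 without WT replicate 3 and −0.05 without MSTN-KO replicate 3. That of ligands to binding proteins was 0.03 with a pseudocount of 1 and ran from −0.31 to 0.17, with 0.05, 0.17 and 0.02 without WT replicate 1, WT replicate 2 or MSTN-KO replicate 1. The causes were not tested. Same-numbered libraries showed no shared deviation (r = −0.0153, −0.128 and −0.142 across genes, and −0.0691 to 0.161 for other pairs). With 3 libraries per group this cannot exclude that they were handled together. With the replicate block 2 members rose and 4 fell, 939 genes rose and 1001 fell over all genes. *Igfbp3* could not be tested with a filter on the mean. Without fragment counts, the precision of values under 1 FPKM is unknown.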
